A study of Homo sapiens with 6 samples.

Results

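The genes described here are the zinc finger genes of chromosome 19 that were expressed in the TC32 Ewing sarcoma cell line. They were chosen by name, place and level: a gene symbol made of ZNF, a number and at most 1 further letter, a position on chromosome 19 (build hg19), and a level of at least 1 FPKM (fragments scaled for transcript length and sequencing depth) in 2 or more of the 6 libraries. Of 252 such symbols listed on the chromosome, 223 passed (88.5%) and 29 did not, out of 26931 symbols in all. The levels in all 6 libraries thus chose the members, so that their being expressed is a description and not a finding. Outside chromosome 19, 228 of 276 ZNF symbols passed the same threshold (82.6%).

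TC32 is an established line, 1 line in all, from a tumour type that most often carries a fusion of EWSR1, an RNA-binding protein gene, with FLI1, a transcription factor gene of the ETS family. RNA-seq libraries were made from total RNA 48 h after transfection, 2 per group, for cells that received the control siNeg, siEWSR1 (aimed at EWSR1) or siFLI1 (aimed at FLI1). All 3 groups were transfected, and each library is one labelled replicate. Whether replicates came from separate cultures is not in the labels, and p-values therefore reflect only how these libraries spread, which may be technical.

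Zinc finger proteins of this family bind DNA through repeated fingers, each folded around a zinc ion held by cysteines and histidines. Many also carry a KRAB domain, which brings in the corepressor TRIM28 and, through it, the histone methyltransferase SETDB1 and heterochromatin proteins; several such proteins are known to silence retrotransposons. The genes arose largely by tandem duplication and lie in clusters on chromosome 19, so neighbours are often close copies of each other.

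The 6 libraries had 15159073 to 16298374 fragments by what the deposited intervals imply, and 12079 to 12741 genes at an FPKM of at least 1. The targeted genes were lower with their own siRNA (limma adjusted p = 0.000444 for EWSR1 and 0.00423 for FLI1). EWSR1 stood at 46.5 and 47.2 FPKM with siNeg, 34.6 and 32.3 with siEWSR1 and 51.2 and 50.2 with siFLI1, and FLI1 at 10.9 and 10.9, 10.4 and 10.6, and 8.98 and 8.56 in the same order. Gene-level FPKM adds the normal and the fusion transcripts together. The labelled cell type was checked on 8 fixed Ewing sarcoma markers, of which 7 were tested. Their summed level was 972 to 997 FPKM with siNeg, 480 to 591 with siEWSR1 and 517 to 564 with siFLI1. Of 5 fibroblast markers 2 were tested, and their summed level was 7.27 to 8.46, 110 to 111 and 145 to 157 FPKM in the 3 groups. The summed levels of the other lists were 23.1 to 30.6 FPKM for 7 epithelial markers, 3.26 to 4.71 for 6 blood markers (2 of them at 0 in all libraries), 17.4 to 26.9 for 5 endothelial markers and 0.273 to 1.18 for 3 pluripotency markers (1 at 0). The epithelial, blood and endothelial sums rested mostly on KRT18 (20.63 to 27.28 FPKM), CD68 (3.026 to 4.297) and EGFL7 (16.51 to 26.55). Under 1 FPKM in all libraries were 3, 5 and 4 markers of these lists, and all 3 for pluripotency. The fibroblast sum was mostly COL1A1, at 6.902 to 143.7 FPKM, and 3 of that list were under 1 in all libraries. The part of these markers in the members' results was not tested. In such bulk RNA, fewer cells of a type and less RNA per cell cannot be told apart.

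Promoters of 5 members are shown here because these genes carry the results that follow. ZNF528 and ZNF121 are among the largest rises and falls with either siRNA. ZNF547 and ZNF85 were higher and lower and hold a GGAA repeat, though ZNF547 reached the threshold only with an siRNA against a fusion partner. ZNF274 is a known regulator of the family itself. FLI1 and the fusion bind the ETS core, and the fusion is also known to act at GGAA repeats, so 2 words were searched on both strands: CCGGAAGT (read as ACTTCCGG on the other strand) and GGAAGGAA (read as TTCCTTCC). Each line gives the 250 bases before the gene's start, 5′ to 3′ on the gene's own strand, from RefSeq on build GRCh38.p14, with every match in capitals. The windows are chr19:52397599-52397848 (plus strand) for ZNF528, chr19:9584505-9584754 (minus) for ZNF121, chr19:57363301-57363550 (plus) for ZNF547, chr19:20923001-20923250 (plus) for ZNF85 and chr19:58182811-58183060 (plus) for ZNF274. This build differs from that of the expression files, and no coordinate was carried from one to the other.
ZNF528: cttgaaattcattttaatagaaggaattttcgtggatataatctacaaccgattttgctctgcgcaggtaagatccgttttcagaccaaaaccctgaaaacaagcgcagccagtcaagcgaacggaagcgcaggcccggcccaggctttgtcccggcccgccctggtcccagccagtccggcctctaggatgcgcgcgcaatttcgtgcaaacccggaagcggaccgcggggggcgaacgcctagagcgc
ZNF121: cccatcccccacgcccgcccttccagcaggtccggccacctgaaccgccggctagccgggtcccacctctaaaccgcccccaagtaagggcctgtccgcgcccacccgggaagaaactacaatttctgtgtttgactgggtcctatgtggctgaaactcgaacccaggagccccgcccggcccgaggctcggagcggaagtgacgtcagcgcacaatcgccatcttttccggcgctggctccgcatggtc
ZNF547: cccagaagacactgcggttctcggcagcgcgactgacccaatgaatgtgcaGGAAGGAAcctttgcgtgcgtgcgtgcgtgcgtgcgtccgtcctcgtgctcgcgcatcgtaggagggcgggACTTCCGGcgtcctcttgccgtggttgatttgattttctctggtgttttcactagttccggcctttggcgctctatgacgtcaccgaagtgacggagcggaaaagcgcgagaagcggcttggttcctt
ZNF85: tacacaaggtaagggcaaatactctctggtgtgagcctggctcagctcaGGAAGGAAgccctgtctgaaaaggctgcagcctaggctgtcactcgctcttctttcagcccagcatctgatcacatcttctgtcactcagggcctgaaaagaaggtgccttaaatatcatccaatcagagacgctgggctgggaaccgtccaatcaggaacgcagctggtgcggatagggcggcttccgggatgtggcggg
ZNF274: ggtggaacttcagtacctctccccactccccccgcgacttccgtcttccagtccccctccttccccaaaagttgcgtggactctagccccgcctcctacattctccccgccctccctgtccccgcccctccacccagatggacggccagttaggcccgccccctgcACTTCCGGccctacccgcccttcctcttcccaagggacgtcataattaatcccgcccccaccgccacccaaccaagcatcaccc

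No match to either word was found in the windows of ZNF528 and ZNF121. ZNF547 held GGAAGGAA starting 199 bases and ACTTCCGG starting 128 bases before the start site, ZNF85 held GGAAGGAA at 201 bases, and ZNF274 held ACTTCCGG at 84 bases. RefSeq promoter windows of 300 bases (250 before and 50 after the start) were found for 191 of the 223 members. The ETS core occurred in 44 of the 191 (23.0%), against 15.7% of the expressed ZNF genes of other chromosomes, 8.03% of other tested chromosome 19 genes, 10.2% of all tested genes and 4.95% of all 27305 genes in the promoter table. Among members it was in 18.3% of those called higher with siEWSR1, 25% of those called lower and 27.2% of those not called, and with siFLI1 in 17.7%, 21.2% and 29.1%. The GGAA repeat occurred in 7 members (3.66%), against 4.76% of all tested genes and 4.51% of the table. A match is a string of letters in these windows and says nothing on binding. The members' windows held a median of 20 CG pairs, against 25.5 over all tested genes, and the lowest median among the larger gene clusters was 10, in the cluster at 19.8 to 24.3 Mb described below.

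The members were low to moderate in level. Their mean FPKM over the 6 libraries ran from 0.834 to 39.9 with a median of 3.41; 162 were under 5 and 16 were at 10 or more. An FPKM of 1 was reached in all 6 libraries by 205 members. With siNeg the highest member was ZNF146, which encodes a protein made almost wholly of fingers with no KRAB domain, at 48.7 and 45.7 FPKM. After it in siNeg came ZNF581 at 29.4 and 33.3, ZNF428 at 20.02 and 23.1, ZNF266 at 17.8 and 17.9, ZNF580 at 16.1 and 18.3 and ZNF121 at 18.2 and 15.4 FPKM. The ranges of the last 3 overlapped each other. Just inside the threshold, by the second highest of their 6 values, were ZNF792 and ZNF805 (both 1.04 FPKM), and just outside were ZNF799 (0.992) and ZNF833P (0.988). ZNF536, known from brain, was listed far below it, at 0.012 FPKM or less. The deposited intervals imply 1 to 2710 fragments per member and library, with a median of 355, so that the counting error is widest for members such as ZNF826P.

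**Figure D1:**
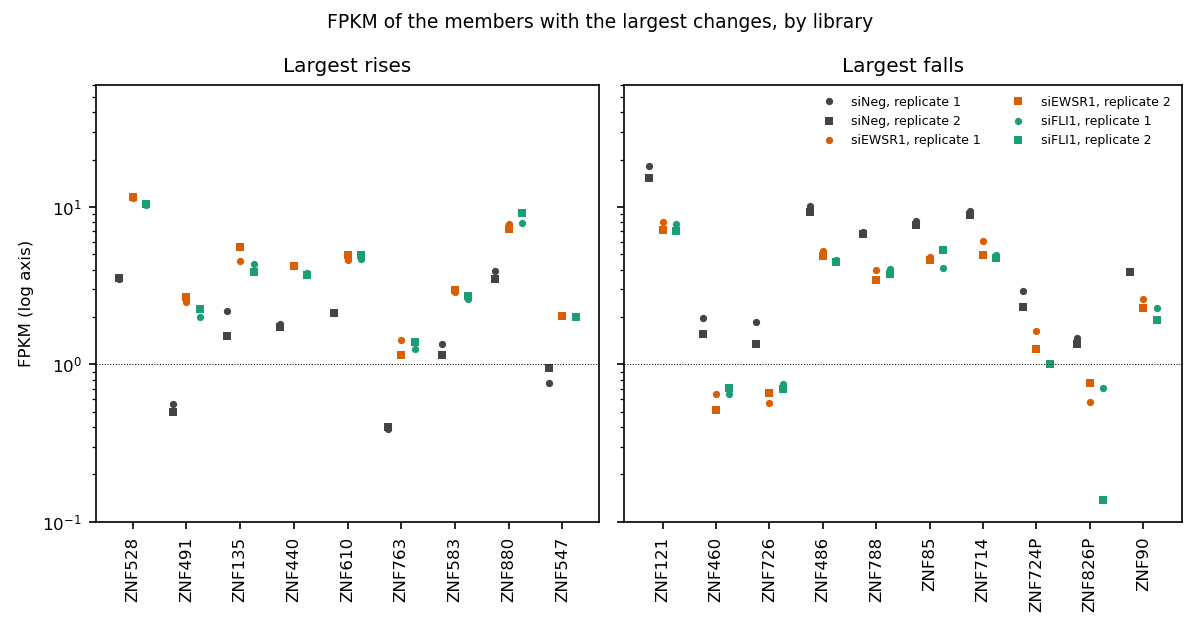
FPKM of named members (log axis) in each of the 6 libraries, with 1 point per library coloured by siRNA; the dotted line is the threshold of 1. For ZNF528 the siNeg points lie at 3.51 and 3.53 and the other 4 at 10.3 to 11.6, and for ZNF121 the siNeg points at 18.2 and 15.4 lie above the other 4, at 7.06 to 8.0.

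With siEWSR1, 96 of the 223 members rose (43.0%) and 33 fell (14.8%) against siNeg, while over all 13043 tested genes 33.2% were called higher and 31.0% lower (limma, Benjamini-Hochberg adjusted p under 0.05). With siFLI1, 92 members rose (41.3%) and 40 fell (17.9%), where the background was 35.7% and 29.6%. The median log2 change of the members was 0.15 with siEWSR1 and 0.15 with siFLI1, beside 0.0071 and 0.041 over all tested genes. Changes are differences of log2(FPKM + 0.5), which understates the change of low genes, and both comparisons share the siNeg libraries. This tilt toward higher calls depended on how the libraries were scaled: with quantile normalization 58 members were called higher and 65 lower with siEWSR1, and 43 higher and 75 lower with siFLI1, with medians of -0.0070 and -0.057. Under that scaling 29.7% and 32.4% of all tested genes were called higher and lower with siEWSR1, and 29.8% and 34.3% with siFLI1. Scaling by the median ratio gave 94 higher and 35 lower with siEWSR1 and 86 and 49 with siFLI1. Rescaling after leaving out genes on rows under 300 bases gave 115 and 23, and 104 and 37. That rescaling also moved the median of all genes, to 0.108 with siEWSR1 and 0.0787 with siFLI1. Shares of all tested genes are not given for these scalings or with a library left out. Such counts can therefore not be read as particular to the members. Leaving out siNeg replicate 1 lowered the count of falls to 18 with siEWSR1 and 23 with siFLI1.

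The threshold itself favoured some calls. It was reached by 8 members only with an siRNA against a fusion partner (ZNF429, ZNF490, ZNF491, ZNF547, ZNF582, ZNF69, ZNF763 and ZNF836), and these had to be higher there. Another 4 reached it only with siNeg (ZNF460, ZNF726, ZNF805 and ZNF826P), and these had to be lower with the siRNAs. The changes given for these 12 are therefore descriptions. Without these 12, of the other 211 members 88 were higher and 31 lower with siEWSR1, and 84 and 37 with siFLI1.

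**Figure D2:**
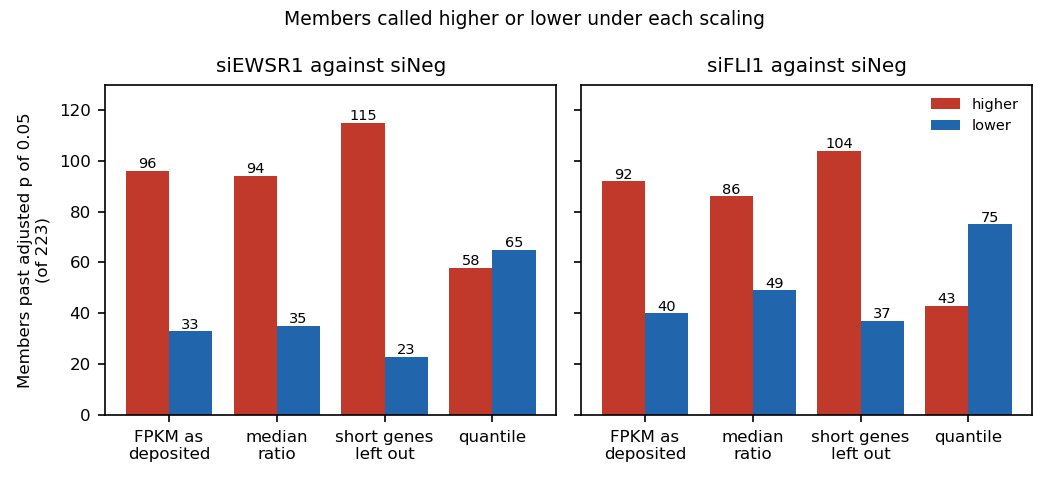
Number of the 223 members called higher or lower (limma, adjusted p under 0.05) for each siRNA under 4 ways of scaling the libraries. With siEWSR1 the split was 96 higher and 33 lower as deposited and 58 and 65 with quantile normalization.

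The ZNF genes of other chromosomes were also called higher more often than lower. Of those 228, 97 were higher and 28 lower with siEWSR1 (median 0.16), and 99 and 36 with siFLI1 (median 0.16). Of the 735 other tested genes of chromosome 19, 251 were higher and 201 lower with siEWSR1 (median 0.04), and 289 and 168 with siFLI1 (median 0.11). The members' median level of 3.41 FPKM lay below the 8.78 of all tested genes, and the same counts were taken at like levels. Among genes with a mean FPKM of 1 to 10, the 202 members in that band gave 90 higher and 27 lower with siEWSR1 and 85 and 33 with siFLI1; of the 6444 other genes in it 37.3% were higher and 24.9% lower with siEWSR1, and 39.0% and 25.1% with siFLI1. Whether the chromosome 19 genes differ from the rest of the family was not tested. With quantile normalization the other ZNF genes gave 70 higher and 49 lower with siEWSR1, and 75 and 61 with siFLI1. Of the 202 members at 1 to 10 FPKM it then gave 25.7% higher and 28.2% lower with siEWSR1, and 18.3% and 32.2% with siFLI1. Of the 6444 other genes in that band it gave 27.3% and 33.3% with siEWSR1, and 27.5% and 35.3% with siFLI1.

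Most changes were small. The median size of a member's log2 change was 0.30 with siEWSR1 and 0.30 with siFLI1, beside 0.35 for both over all tested genes, and the range was -1.09 to 1.58 with siEWSR1 and -1.12 to 1.44 with siFLI1. With siEWSR1, 5 members rose and 2 fell at least 2-fold, where 7.91% and 4.59% of all tested genes did. With siFLI1 it was 5 and 4, beside 9.32% and 4.59%. Without the 12 members that reached the threshold in 1 arm the counts were 4 and 1 with siEWSR1 and 3 and 3 with siFLI1. Such counts moved with a few borderline members: without siNeg replicate 1 they were 7 and 0 with siEWSR1 and 6 and 0 with siFLI1, without siEWSR1 replicate 2 only 1 fell 2-fold with siEWSR1, with a pseudocount of 0.1 they were 11 and 3, and 9 and 6, and with quantile normalization 3 and 4, and 1 and 7.

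**Figure D3:**
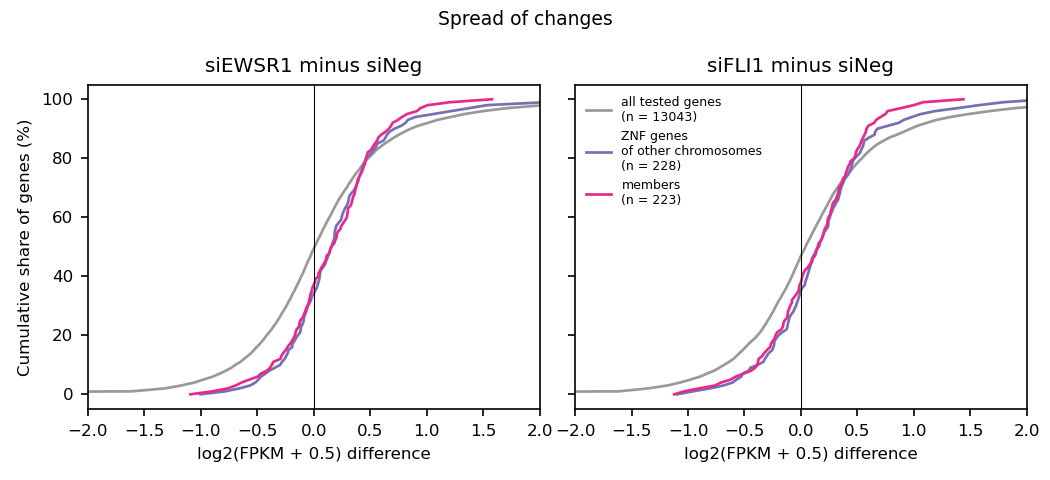
Cumulative share of genes (percent) by log2(FPKM + 0.5) difference from siNeg, for the 223 members, the 228 ZNF genes of other chromosomes and all 13043 tested genes. The axis stops at -2 and 2. The members' curve crosses 50% at 0.15 in both panels, close to that of the other ZNF genes, and its tails end at -1.09 and 1.58 with siEWSR1 and at -1.12 and 1.44 with siFLI1.

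The largest rises and falls with each siRNA named here and below were taken only from called members with no overlap with siNeg. Their separation from siNeg was thus a condition of naming. ZNF528 was among the members that rose most. This gene (hg19, chromosome 19, 52901121 to 52921657) was at 3.51 and 3.53 FPKM with siNeg, 11.4 and 11.6 with siEWSR1 and 10.3 and 10.5 with siFLI1. Both siNeg libraries were the lowest and overlapped neither group. Its log2 change was 1.58 ± 0.06 with siEWSR1 (SE, limma adjusted p = 6.51e-06), a 2.99-fold rise, and 1.44 ± 0.06 with siFLI1 (adjusted p = 7.19e-06). The member before it in the same cluster, ZNF880 (52873170 to 52889046), was at 3.94 and 3.47 FPKM with siNeg, 7.78 and 7.22 with siEWSR1 and 7.90 and 9.12 with siFLI1, again with no overlap with siNeg. ZNF880 rose by 0.93 ± 0.10 and 1.10 ± 0.10 on the log2 scale. ZNF610 (52839498 to 52870376) was at 2.11 FPKM in either siNeg replicate, 4.62 and 4.96 with siEWSR1 and 4.70 and 4.93 with siFLI1, and rose by 1.02 ± 0.07 with either siRNA. ZNF480 (52800422 to 52829180), the next gene before these, was at 4.31 and 4.03, then 6.83 and 6.73, then 6.40 and 6.83 FPKM, a rise of 0.64 and 0.61. These 4 neighbours among the members were thus all higher in all 4 libraries with an siRNA against a fusion partner than in both siNeg libraries. ZNF480 was named after its values were seen, so this run of 4 is a description.

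A second run of higher neighbours lay at 11.6 to 12.7 Mb. ZNF440 (11925107 to 11946016) went from 1.81 and 1.74 FPKM to 4.31 and 4.21 with siEWSR1 and 3.79 and 3.69 with siFLI1, a rise of 1.07 ± 0.07 (limma adjusted p = 5.33e-05) and 0.90 ± 0.07 (adjusted p = 8.68e-05). Both siNeg libraries were the lowest. Of the 30-base words of ZNF440, 26.1% also occur in other genes, most of all in ZNF439, the next gene. ZNF439 rose by 0.78 and 0.76, and reads of the pair may be split between them. Among the neighbours that reached the threshold only with an siRNA against a fusion partner, ZNF491 (11909391 to 11919306) was at 0.56 and 0.499 FPKM with siNeg, 2.48 and 2.68 with siEWSR1 and 2.01 and 2.24 with siFLI1, differences of 1.58 and 1.35 on the log2 scale. ZNF763 (12075869 to 12091198) was at 0.39 and 0.401 FPKM with siNeg, 1.43 and 1.15 with siEWSR1 and 1.24 and 1.39 with siFLI1, differences of 1.00 and 1.02. All 6 values of ZNF763 are low, and 21.4% of its words are shared with other genes, most of all ZNF440.

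Rises of similar size were also seen outside these runs. ZNF135 stood at 2.20 and 1.51 FPKM with siNeg, 4.56 and 5.53 with siEWSR1 and 4.34 and 3.85 with siFLI1. Replicates of this gene differed more than most. That the groups did not overlap was required for naming it. Its log2 change was 1.25 ± 0.16 with siEWSR1 (limma adjusted p = 0.00071) and 0.98 ± 0.16 with siFLI1 (adjusted p = 0.00195). ZNF583 went from 1.34 and 1.14 FPKM to 2.89 and 2.95 with siEWSR1 and 2.62 and 2.71 with siFLI1. It rose by 0.97 ± 0.09 and 0.86 ± 0.09. ZNF547, whose promoter shown above holds both words, reached the threshold only with an siRNA against a fusion partner. It thus had to be higher there. The gene went from 0.766 and 0.947 FPKM to 2.06 and 2.04 and to 1.99 and 2.00, differences of 0.91 and 0.88. Its position overlaps TRAPPC2B, and the strand setting of the counting is not given.

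ZNF121 had the lowest log2(FPKM + 0.5) change with siEWSR1, although the lower-level ZNF460 and ZNF726 fell by more in ratio of FPKM. This gene (9676404 to 9695209), the sixth highest member in the siNeg libraries, stood at 18.2 and 15.4 FPKM with siNeg, 8.0 and 7.15 with siEWSR1 and 7.83 and 7.06 with siFLI1. Both siNeg libraries were above the other 4. The log2 change was -1.09 ± 0.10 with siEWSR1 (limma adjusted p = 0.000199), a 2.13-fold decrease of FPKM + 0.5. With siFLI1 the change was -1.12 ± 0.10 (limma adjusted p = 0.000159). ZNF460 went from 1.97 and 1.56 FPKM to 0.651 and 0.509 with siEWSR1 and 0.649 and 0.705 with siFLI1, to below the threshold. The differences were -1.07 and -0.94 on the log2 scale. ZNF788, the only called fall in the cluster of ZNF491, went from 6.89 and 6.76 FPKM to 3.98 and 3.46 and to 4.02 and 3.76, with changes of -0.80 and -0.74.

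Most of the other named falls lay at 19.8 to 24.3 Mb. ZNF486 (20278023 to 20311299) was at 10.2 and 9.25 FPKM with siNeg, 5.22 and 4.91 with siEWSR1 and 4.58 and 4.49 with siFLI1. Neither group overlapped siNeg, and the log2 change was -0.87 ± 0.07 with siEWSR1 (limma adjusted p = 0.000118) and -1.02 ± 0.07 with siFLI1 (adjusted p = 5.76e-05). ZNF714 went from 9.44 and 8.91 FPKM to 6.07 and 4.96 and to 4.92 and 4.76, with changes of -0.69 and -0.86. ZNF85, whose promoter is shown above, went from 8.20 and 7.66 FPKM to 4.83 and 4.60 and to 4.11 and 5.30, with changes of -0.69 ± 0.11 and -0.70 ± 0.11. ZNF726 went from 1.86 and 1.35 FPKM to 0.571 and 0.655 and to 0.752 and 0.696, with changes of -0.91 and -0.77. In all of these both siNeg libraries were the highest. Lack of overlap with siNeg was a condition of naming these genes, for ZNF85 with siEWSR1 only. For ZNF726 it was also fixed by the threshold, which this gene reached only with siNeg. ZNF724P went from 2.93 and 2.31 FPKM to 1.63 and 1.24 and to 1.01 and 1.00 (changes of -0.69 and -1.04), and ZNF90 from 3.90 and 3.85 to 2.61 and 2.27 and to 2.28 and 1.92 (changes of -0.58 and -0.75). These genes share sequence with others in the cluster. Of the words of ZNF724P, 26.9% occur in other genes, most of all in ZNF43. For ZNF486 the share was 21.7% (most of all ZNF253) and for ZNF714 20.6% (most of all ZNF431).

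ZNF826P, in the same cluster, reached the threshold only with siNeg. Its values were 1.47 and 1.35 FPKM with siNeg, 0.576 and 0.76 with siEWSR1 and 0.71 and 0.137 with siFLI1, with differences of -0.71 ± 0.29 and -1.12 ± 0.29. The replicates with siFLI1 lay far apart. The siFLI1 difference missed the threshold without siNeg replicate 1 (limma adjusted p = 0.0661) or siNeg replicate 2 (adjusted p = 0.0516). The gene overlaps MIR1270.

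**Figure D4:**
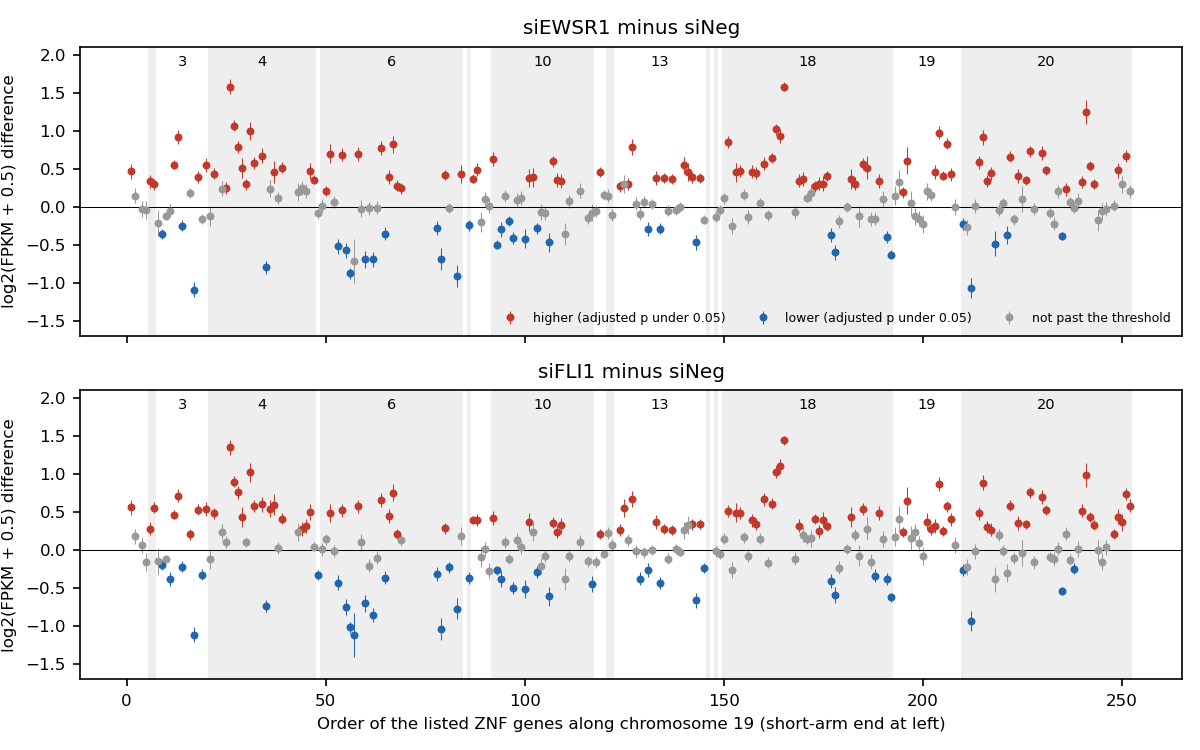
Log2(FPKM + 0.5) difference from siNeg of each member in its order along chromosome 19, for siEWSR1 and siFLI1, with bars of 1 SE of the fit, called members in red or blue, others in grey, and the clusters as numbered bands. Runs of positive values stand in bands 4 (11.6 to 12.7 Mb) and 18 (52.1 to 54.1 Mb) and a mix of both signs in band 6 (19.8 to 24.3 Mb), all on the scaling of the deposited FPKM; quantile normalization lowered the medians of these 3 bands.

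Members were also grouped by position, and the cluster counts stand beside the shares of all tested genes. Those were 33.2% higher and 31.0% lower with siEWSR1, and 35.7% and 29.6% with siFLI1. The 252 listed genes form 20 clusters when neighbours under 500 kb apart are joined, and the 8 clusters with at least 10 members hold 203 of the 223. In the cluster at 11594242 to 12740676 (ZNF653 to ZNF791), 14 of 22 members rose and 1 fell with either siRNA, with median changes of 0.40 and 0.42. Of these 22, 4 reached the threshold only with an siRNA against a fusion partner; of the other 18, 10 rose and 1 fell with either siRNA, with medians of 0.27 and 0.29. With quantile normalization the 22 gave 10 higher and 2 lower with siEWSR1, and 6 and 2 with siFLI1. Leaving out 1 library gave 10 to 14 higher and 1 lower. In the cluster at 52074490 to 54083523 (ZNF175 to ZNF331), 21 of 40 rose and 4 fell with siEWSR1 and 18 rose and 5 fell with siFLI1, but quantile normalization gave 10 and 11, and 11 and 12, and without siNeg replicate 2 the rises with siEWSR1 were 12.

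Among all tested genes 33.2% were higher and 31.0% lower with siEWSR1, and 35.7% and 29.6% with siFLI1. The cluster at 19778962 to 24312769 (ZNF101 to ZNF254) likewise held calls in both directions. Of its 27 members, 11 rose and 9 fell with siEWSR1 and 8 rose and 11 fell with siFLI1, with a median change of -0.02 for both; of the 24 that did not reach the threshold in 1 arm only, 10 rose and 8 fell with siEWSR1 and 7 and 9 with siFLI1. Rising members such as ZNF708 (1.69 and 1.495 FPKM with siNeg, 2.89 and 3.25 with siEWSR1, 2.73 and 2.87 with siFLI1) lie among falling ones such as ZNF714. With quantile normalization 6 rose and 11 fell with siEWSR1, and 2 and 14 with siFLI1. Rises with siEWSR1 were 7 without siNeg replicate 1 or siEWSR1 replicate 2, rises with siFLI1 were 5 without siNeg replicate 1 or siFLI1 replicate 2, and falls with siFLI1 were 7 without siNeg replicate 1. ZNF708 was named after its values were seen.

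For the other large clusters, counts of calls mostly moved by over 1.5 times when 1 library was left out, so medians are given first. Some counts of the clusters described above moved as much. At 55987699 to 57183123 (16 members) the median was 0.20 with siEWSR1 and 0.26 with siFLI1, and with quantile normalization 0.09 and 0.14. At 57702868 to 59000900 (41 members) it was 0.10 and 0.19, and with quantile normalization -0.01 and -0.0051. At 44037340 to 45004575 (22 members) it was 0.17 and 0.07, and with quantile normalization 0.04 and -0.10. At 36672962 to 38270230 (23 members) it was -0.07 and -0.08, and with quantile normalization -0.26 and -0.23. The siEWSR1 median there was above 0 with short genes left out (0.02), without siNeg replicate 1 (0.06) and without siEWSR1 replicate 2 (0.0047). At 8575462 to 9879410 (12 members), which holds ZNF121, it was -0.09 and -0.13, with quantile normalization -0.17 and -0.19, and with siEWSR1 0.0035 with short genes left out. Calls on the deposited scaling, higher then lower, follow in the same order, without members that reached the threshold in 1 arm. With siEWSR1 they were 6 and 0, 16 and 4, 10 and 3, 6 and 7, and 4 and 3. With siFLI1 they were 8 and 0, 18 and 3, 8 and 5, 5 and 7, and 5 and 5. These are of 15, 38, 22, 23 and 12 members. Over all tested genes 33.2% were called higher and 31.0% lower with siEWSR1, and 35.7% and 29.6% with siFLI1. No cluster was tested against another.

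Members with a known role did not move together. ZNF91, which represses SVA retrotransposons, was at 3.45 and 3.54 FPKM with siNeg, 4.81 and 4.85 with siEWSR1 and 4.24 and 4.47 with siFLI1. It rose by 0.42 ± 0.07 with siEWSR1 (limma adjusted p = 0.00189) and 0.28 ± 0.07 with siFLI1 (adjusted p = 0.00982). The siFLI1 call was lost with quantile normalization (adjusted p = 0.202), without siFLI1 replicate 2 (adjusted p = 0.0568) and without siNeg replicate 1 (adjusted p = 0.056). Its relative ZNF93, which represses LINE retrotransposons and lies in the same cluster, went the other way. ZNF93 was at 5.68 and 5.67 FPKM with siNeg, 4.24 and 3.41 with siEWSR1 and 4.08 and 4.07 with siFLI1, with changes of -0.52 ± 0.10 and -0.43 ± 0.10.

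ZNF274, which binds the ends of zinc finger genes and recruits SETDB1 there, was at 10.3 and 10.1 FPKM with siNeg, 13.2 and 12.1 with siEWSR1 and 12.9 and 13.1 with siFLI1. It rose by 0.30 ± 0.06 with siEWSR1 (limma adjusted p = 0.00598) and 0.33 ± 0.06 with siFLI1 (adjusted p = 0.00385), with no overlap between either group and siNeg. ZNF331, an imprinted gene, fell by 0.63 ± 0.06 and 0.62 ± 0.06, from 12.2 and 12.4 FPKM to 8.0 and 7.58 with siEWSR1 and 7.85 and 7.84 with siFLI1. ZNF382, a KRAB zinc finger gene often silenced by methylation in carcinomas, went from 4.57 and 4.40 FPKM to 3.27 and 3.22 and to 3.19 and 2.85 (changes of -0.41 and -0.50). ZNF473, which takes part in the processing of histone pre-mRNA, was at 4.88 and 5.08 FPKM with siNeg, 4.86 and 4.79 with siEWSR1 and 4.89 and 4.62 with siFLI1 and was not called (-0.04 ± 0.07, limma adjusted p = 0.599, and -0.06 ± 0.07, adjusted p = 0.458). ZNF675, known to bind the signalling protein TRAF6, changed by -0.02 with siEWSR1 (not called) and -0.23 with siFLI1 (adjusted p = 0.0256). That call was lost without siNeg replicate 1 (adjusted p = 0.117), siNeg replicate 2 (0.0731) or siFLI1 replicate 2 (0.128). ZNF649 was not called by either siRNA (-0.25 and -0.26), nor was ZNF653 (-0.13 and -0.12), which overlaps ECSIT; with quantile normalization both were called lower with either siRNA.

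Among the most abundant members, ZNF146 went from 48.7 and 45.7 FPKM to 34.0 and 32.4 with siEWSR1 and 37.99 and 40.3 with siFLI1. It fell by 0.50 ± 0.06 with siEWSR1 (limma adjusted p = 0.000575) and 0.27 ± 0.06 with siFLI1 (adjusted p = 0.0083). The siFLI1 call did not hold without siFLI1 replicate 1 (0.0562) or siNeg replicate 1 (0.0609). It overlaps ZNF565, another member. ZNF428 was at 20.02 and 23.1 FPKM with siNeg, 29.6 and 23.8 with siEWSR1 and 30.6 and 33.0 with siFLI1. It rose by 0.55 ± 0.12 with siFLI1 (adjusted p = 0.00604) and was not called with siEWSR1 (0.30 ± 0.12, adjusted p = 0.0615), though it was with quantile normalization (adjusted p = 0.024), and it overlaps SRRM5. ZNF581 and ZNF580, neighbours of each other, were not called by either siRNA, with changes of -0.16 and 0.08 and of -0.12 and 0.23. ZNF266 fell by 0.25 with siEWSR1 and 0.22 with siFLI1, and neither call held without siNeg replicate 1 or siNeg replicate 2 (limma adjusted p of 0.0783 to 0.106).

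Few members differed between the siRNAs against the fusion partners. Set against each other, 1 of 223 members was higher with siEWSR1 (0.448%) and 0 were higher with siFLI1, beside 0.79% and 3.07% of all tested genes (limma, adjusted p under 0.05). At an unadjusted p under 0.05 the counts were 20 (8.97%) and 8 (3.59%), beside 7.35% and 16.1% of all tested genes, and the median difference was 0.03. The one called was ZNF791 (12721732 to 12740676), at 8.22 and 8.18 FPKM with siNeg, 10.8 and 10.5 with siEWSR1 and 8.17 and 8.71 with siFLI1. Both siEWSR1 libraries were above the other 4. It differed by 0.32 ± 0.06 between the siRNAs (limma adjusted p = 0.0453), a call lost when any 1 of the 6 libraries was left out (adjusted p of 0.0813 to 0.189) and when only the 2 groups were fitted (adjusted p = 0.103). A p that misses the threshold does not show that the siRNAs acted alike on a member: differences between them ran from -0.38 to 0.41.

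The proteins that KRAB zinc finger proteins work with were followed through a list of 38 genes, all of which were tested. With siEWSR1, 9 rose (23.7%) and 15 fell (39.5%), with a median of -0.16. With siFLI1, 9 rose and 17 fell (44.7%), with a median of -0.15, and without siFLI1 replicate 2 or siNeg replicate 1 the rises were 5. Among all tested genes the shares were the 33.2% and 31.0%, and 35.7% and 29.6%, given above. The median level of the list, 20.5 FPKM, lay above the 8.78 of all tested genes. Shares at like levels were not taken for it, so an excess of falls was not tested. The corepressor TRIM28 was at 123 and 134 FPKM with siNeg, 129 and 118 with siEWSR1 and 124 and 126 with siFLI1, and its groups overlapped (-0.06 ± 0.07, limma adjusted p = 0.474, and -0.04 ± 0.07, adjusted p = 0.617). SETDB1, the methyltransferase it recruits, was at 23.9 and 25.1, 25.2 and 25.1, and 21.9 and 22.0 FPKM. Its change was 0.04 with siEWSR1 (adjusted p = 0.561) and -0.16 with siFLI1 (adjusted p = 0.0376), and the latter call was lost without any 1 of the siNeg or siFLI1 libraries (adjusted p of 0.0633 to 0.195).

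The largest falls in this list exceeded the largest rises. HELLS, a chromatin remodeller needed for DNA methylation, went from 12.6 and 12.2 FPKM to 5.86 and 5.96 with siEWSR1 and 5.68 and 5.75 with siFLI1, with changes of -1.01 ± 0.06 (limma adjusted p = 3.15e-05) and -1.05 ± 0.06 (adjusted p = 2.18e-05). CHAF1A and CHAF1B, subunits of the chromatin assembly factor that deposits histones at replication, changed by -0.92 and -0.99 and by -1.0 and -1.01. DNMT1, the maintenance DNA methyltransferase, went from 57.5 and 60.9 FPKM to 36.4 and 31.4 and to 32.6 and 30.04, changes of -0.80 and -0.91. Among the rises, DNMT3A, a DNA methyltransferase that sets new marks, rose by 0.54 and 0.50, and CHD4, the remodeller of the NuRD complex, by 0.51 and 0.37. MPHOSPH8, a subunit of the HUSH silencing complex, rose by 0.48 and 0.47, and MORC2, which acts with that complex, by 0.42 and 0.34. Related listed genes did not all rise. DNMT3B, which also sets new marks, changed by -0.63 and -0.70. Of the NuRD complex HDAC2 changed by -0.43 and -0.31, and HDAC1 by 0.20 and 0.18. The HUSH subunits FAM208A and PPHLN1 were called lower with siEWSR1 (-0.20 and -0.18) and not called with siFLI1. PIAS1, a SUMO ligase, rose by 0.43 with siEWSR1 and 0.30 with siFLI1, and the latter call was lost with quantile normalization (limma adjusted p = 0.0626), without siFLI1 replicate 1 (0.0541), without siFLI1 replicate 2 (0.0865) and without siNeg replicate 1 (0.0954). Between the siRNAs 0 of the 38 were called by limma, and 5 were higher with siEWSR1 and 0 with siFLI1 at an unadjusted p under 0.05, beside 7.35% and 16.1% of all tested genes.

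**Figure D5:**
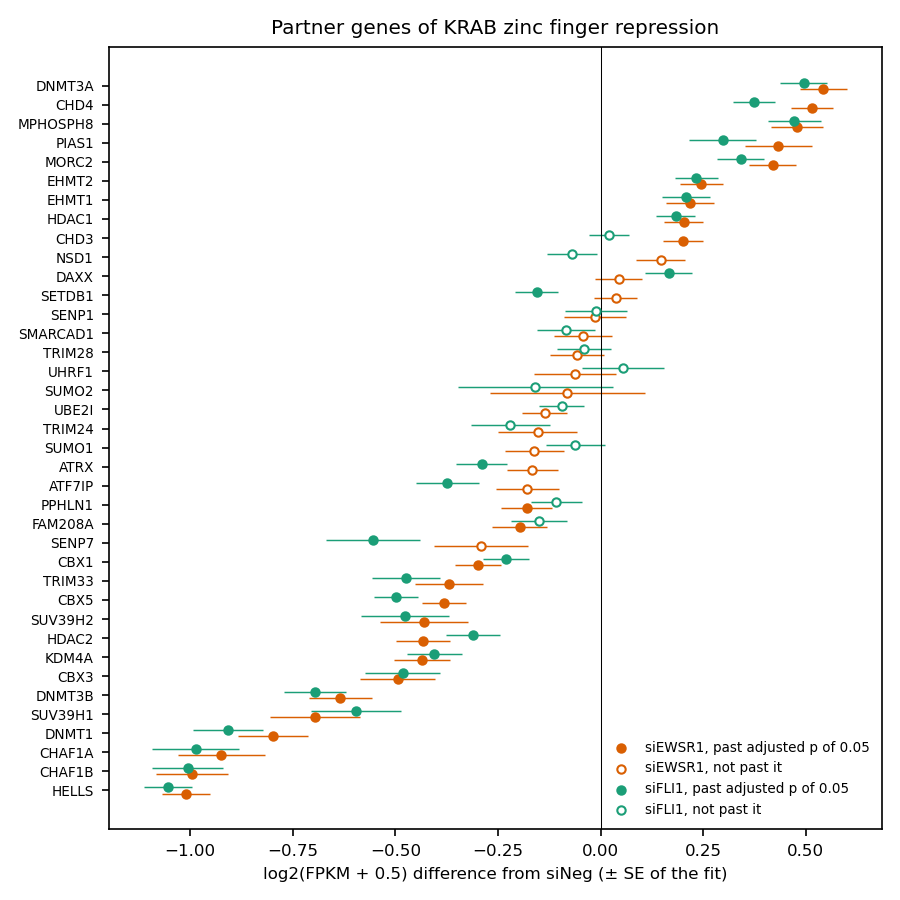
Log2(FPKM + 0.5) difference from siNeg of the 38 partner genes of KRAB zinc finger repression, for siEWSR1 and siFLI1, with bars of 1 SE of the fit; filled points passed the threshold. HELLS, CHAF1B, CHAF1A and DNMT1 lie lowest, at -0.80 to -1.05, and TRIM28 lies near 0.

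Because many members arose by duplication, the share of each gene's 30-base words that also occur in another gene was counted for 222 of the 223 (GENCODE 29 transcripts). The median was 6.41%, and 85 members shared over 10%, led by ZNF443 (52.4%, most of all with ZNF799) and ZNF417 (44.4%, most of all with ZNF587). Of the 138 others, 58 rose and 15 fell with siEWSR1 (median 0.15), and 59 and 18 with siFLI1 (median 0.18). Of the 85, 38 rose and 18 fell with siEWSR1, and 33 and 22 with siFLI1. Some of the 85 shared most with a gene outside the family, such as ZNF554 (16.5%, most of all SPG7) and ZNF791 (13.7%, most of all USP8). Another listed gene is overlapped by 30 members, some of them among the 85, and of these 30, 12 rose and 5 fell with siEWSR1, and 14 and 6 with siFLI1.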

How the data were processed

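RNA-seq was analysed for 6 libraries, 2 each of siNeg, siEWSR1 and siFLI1. The deposited values are gene-level FPKM with interval bounds. Per the submitters' processing notes, the tools were TopHat2 2.0.13, Cufflinks and Cuffdiff, on hg19. No source used here gives the annotation, the strand setting or the handling of multiply mapped reads. The share of low genes at a whole number of fragments (tolerance 0.01) was 37.8% to 40.3%, too small for a count model.

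FPKM of symbols on several rows was summed, and file starts were converted to count from 1. The 13043 genes reaching 1 FPKM in 2 or more libraries entered a fit of log2(FPKM + 0.5) in limma 3.58.1 (R 4.3.3, variance trend, 1 fit over all 6 libraries, 3 residual and 3.39 prior degrees of freedom). P-values are two-sided and adjusted by Benjamini-Hochberg over all tested genes. The fit was tested on simulated data.

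The members and lists were chosen with earlier results of these data known. Named members are the 8 highest and 8 lowest called changes per siRNA without overlap between groups, those called between the siRNAs, the 6 highest in siNeg, a list of known roles and those nearest the threshold; none was called in opposite directions by the 2 siRNAs. Others were named after their values were seen. Up to 4 partner genes per direction are named, and TRIM28 and SETDB1. DNMT3B, HDAC1, HDAC2, FAM208A and PPHLN1 were added after their values were seen. Alternatives covered scaling, pseudocount, filters, membership, variance model, replicates and, added after seeing the data, members reaching the threshold in 1 arm and near-identical copies. Classes by protein domain were planned and not analysed here.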

Additional observations from a re-analysis of the deposited data

How the results depend on the processing

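Across 99 results of 49 named genes and 17 settings, 1582 of 1663 values kept their direction and side of the threshold, 42 lost the threshold, 38 gained it and 1 reversed: ZNF792 with siEWSR1 went from 0.02 to -0.41 (limma adjusted p = 0.0176) with quantile normalization. That scaling gave 58 members higher and 65 lower with siEWSR1 (median -0.0070) and 43 and 75 with siFLI1 (median -0.057); the cause was not tested. With short genes left out the medians were 0.25 and 0.18, partly a shift of all genes to 0.108 and 0.0787. The siEWSR1 median was 0.19 with a pseudocount of 0.1, and the siFLI1 median 0.11 with median ratio scaling. Without members sharing over 10% of words, fewer members gave 58 and 15 with siEWSR1 and 59 and 18 with siFLI1 (median 0.18). Between the siRNAs the median was 0.0597 with median ratio scaling, 0.0616 with quantile normalization, 0.0879 without short genes and 0.0136 without members sharing words. Members higher with siEWSR1 than with siFLI1 numbered 0 with no filter, with only the 2 groups fitted and without members sharing words, and 2 with a robust trend or without short genes.

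Leaving out 1 library gave 67 to 90 higher, 18 to 34 lower and medians of 0.13 to 0.19 with siEWSR1, and 63 to 92, 23 to 43 and 0.14 to 0.16 with siFLI1. Between the siRNAs it gave 0 higher, 0 to 1 lower and medians of 0.0199 to 0.0505. Partner genes were 6 to 9 higher and 12 to 16 lower with siEWSR1, and 5 to 9 and 14 to 17 with siFLI1, the 5 without siFLI1 replicate 2 or siNeg replicate 1. Where 1 library is left in a group, it is assumed to vary like the others.

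With the replicate number as a block, 93 members were higher and 31 lower with siEWSR1, 88 and 40 with siFLI1, and 0 and 0 between the siRNAs. Deviations of same-numbered libraries correlated at -0.137, -0.053 and 0.0689, so the numbers were not taken to pair the libraries. The deposited FPKM carry no fragment counts, so the depth behind each value is known only through the intervals, which limits low members most.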
